A study of Rattus norvegicus with 22 samples.

Results

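Interleukins and their receptor chains were read from the array as the gene symbols that start with Il and a digit, leaving out 10 that belong to the classical IL-1 axis or are Il6 itself (Il1a, Il1b, Il1rn, Il1r1, Il1r2, Il1rap, Il1rl1, Il18, Il33 and Il6). Of 74 such symbols 64 remained, of the 19167 gene symbols on the array, and each was read from its brightest probe. The group is defined by name only. It therefore includes Il8ra and Il8rb, the older symbols of the chemokine receptors Cxcr1 and Cxcr2, and it lacks IL-17A, which the array carries under the symbol LOC301289.

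The arrays came from 11 male F344 rats that drank 4-nitroquinoline 1-oxide (4-NQO), a carcinogen that forms DNA adducts, at 20 ppm for 10 weeks and were 33 weeks old at collection. From each rat 1 oral squamous cell carcinoma (OSCC) of the tongue and 1 piece of adjacent, phenotypically normal tongue were hybridised to one-colour Agilent rat arrays. The normal pieces carry a treatment label of none (0 ppm) and the titles of all 22 samples say untreated, whereas the protocol takes both pieces from the same 4-NQO-treated animals, so that the normal group is carcinogen-exposed tissue and no unexposed tongue was compared. Both groups are pieces of whole tissue, in which fewer cells of a type and less RNA per cell cannot be told apart.

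Interleukins are secreted proteins by which leukocytes, epithelium and stroma signal to each other. Most bind receptors built of a private chain and a chain shared within a family (the common gamma chain, the common beta chain, gp130 or the IL-10 receptor beta chain), which signal through Janus kinases and STAT factors. The IL-36 cytokines and the IL-17 receptors instead lead to NF-kB, and in stratified epithelia such as that of the tongue both IL-36 and the IL-20 subfamily of IL-10 relatives act on the keratinocytes themselves.

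The tissue pieces differed in more than the tumour, and those values stand beside every result that follows. Summed levels of 6 skeletal muscle genes ranged from 900 to 1898 in normal arrays and from 46.4 to 2177 in OSCC arrays (signal relative to the 75th percentile of the array), with 5 of 6 called lower. The OSCC arrays of animals 21, 22 and 24 held 1635 to 2177 and the other 8 at most 651. All 6 gland genes were called higher, from a normal range of 0.161 to 2.62 to an OSCC range of 2.23 to 4763. Neutrophil markers (7 genes, which include Cxcr2 itself) were called higher in 5 cases, with sums of 0.63 to 4.6 in normal and 1.56 to 395 in OSCC over the arrays with a value for all 7, while Mpo and Ngp were above background on no array. Of 9 T cell markers 6 were called higher (sums 0.959 to 3.48 and 1.55 to 7.38), of 6 macrophage markers 4 (1.06 to 3.13 and 2.03 to 9.49; Marco above background on no array), of 4 B and plasma cell markers 2 (0.0677 to 0.168 and 0.123 to 5.65) and of 6 fibroblast markers 5 (53.2 to 94.2 and 49.5 to 440). Of 6 mast cell markers 1 was called lower (4.56 to 11.8 and 0.854 to 19.3), and of 5 endothelial markers none reached a 2-fold difference (8.39 to 13.1 and 3.48 to 11.8). Of 5 tongue epithelium markers 1 was called higher, and their sums overlapped, from 350 to 854 in normal and from 229 to 990 in OSCC. The part of these cell types in the results was not tested. The scanner read all normal arrays and those of the OSCC from animals 4 and 9 on 1 day, and the remaining 9 OSCC arrays on a second day, so within-day values exist for 2 pairs.

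The probes of the epithelial IL-36 genes, of Il24 and of Il20ra are shown because the description turns on them. The IL-36 genes form a cluster, and the mean differences of the ligand Il24 and the receptor chain Il20ra had opposite signs. That of Il6st is shown because it gave no signal. Each line gives the first 30 of the 60 bases of the probe, which is written in the sense of the transcript, with the rn4 position of those bases from the array annotation. Each of these probes lies in the genome as 1 unbroken block. The annotation of exon parts for rn4 was not used here.
Il1f9 (Il36g), chr3:2437664-2437693, plus strand: cccatcttcctcacatcaaaaaagggagaa
Il1f6 (Il36a), chr3:2485937-2485966, plus strand: ttgacccaagaacttgggaaaaccttcatc
Il1f8 (Il36b), chr3:2510845-2510874, minus strand: tcctgacatccatgtctgaaatgccattca
Il1f5 (Il36rn), brighter probe, chr3:2534706-2534735, plus strand: tctgaggaccccgcctgggatgctcccatc
Il1f5 (Il36rn), dimmer probe, chr3:2536940-2536969, plus strand: cagaaaccccatgaactaaacatgttgctt
Il24, chr13:43831544-43831573, minus strand: acttcctgtgagctggctcaccatgggggc
Il20ra, chr1:15009512-15009541, plus strand: gaaaactatctcatacaatttatggaggaa
Il6st, chr2:43842305-43842334, plus strand: aaagatggccactgaaaactggaccaacag

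Most of the group was dim. A probe was well above background on at least 1 array for 51 of the 64 genes (79.7%, against 75.9% of all symbols), and on all 22 arrays for 18 (28.1%, against 49.9%). On no array were the probes of 13 genes well above background. These were Il12a, Il17rd, Il1rapl1, Il1rapl2, Il2, Il21, Il25, Il3, Il4, Il5ra, Il6st, Il9 and Il9r, among them the T cell growth factor Il2 and the type 2 cytokine Il4. Il6st encodes gp130, the shared chain of the IL-6 family. Its probe lay between -7.76 and -4.50 on the log2 scale relative to the 75th percentile, and no other probe on the array carries its symbol. An absent transcript and a probe that fails to report it cannot be told apart here. A further 18 genes were above background on OSCC arrays but on no normal array. In all, 31 genes were above background on more OSCC than normal arrays and 2 on fewer (Il20ra and Il1f10). Of all probes, 48.42 to 56.1% were above background on the normal arrays and 52.28 to 65.49% on the OSCC arrays. The like counts over all gene symbols were not made, so nothing particular to the group is read from these counts.

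**Figure D1:**
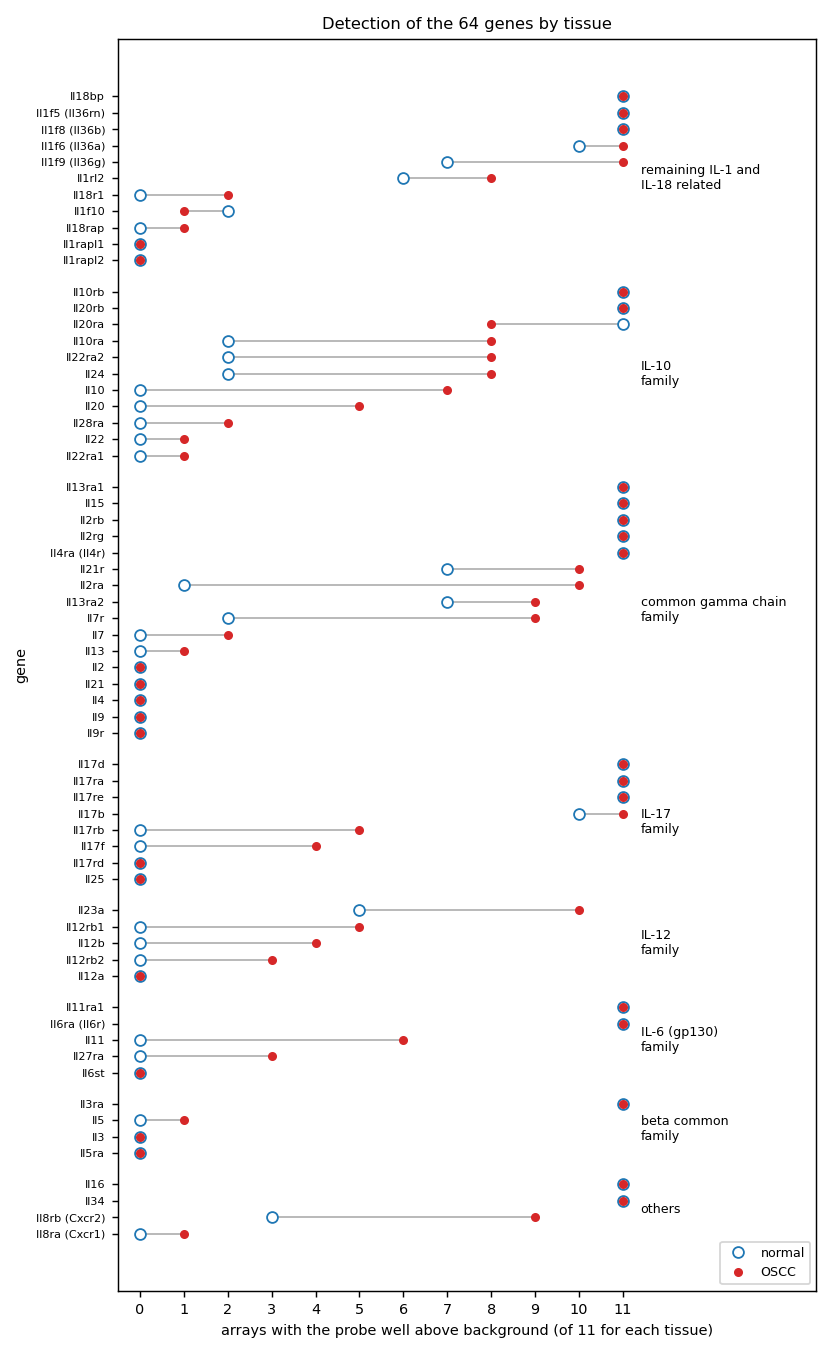
For each of the 64 genes (vertical axis, grouped by receptor family) the number of arrays on which its probe was well above background, of 11 normal arrays (open blue) and 11 OSCC arrays (red). Il24, Il10, Il2ra and Il7r moved from at most 2 normal arrays to between 7 and 10 OSCC arrays, and 18 genes were above background on all arrays.

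In OSCC 16 of the 64 genes were higher and 5 lower than in the paired normal tissue (limma with rat and tissue as terms, adjusted p below 0.05 over all probes and at least 2-fold). Over all gene symbols the same rule called 7.48% higher and 7.24% lower. Without Cxcr1 and Cxcr2 the count of higher genes was 15. Among the 18 genes above background on all arrays 3 were called higher and 3 lower, where the rule called 5.60% and 8.60% of all such symbols. The median log2 difference was 0.15 over the 64 genes and -0.24 over all probes. The genes of the group above background on no array had a median of -0.55 (range -0.73 to 0.02), and the median of all such probes was also -0.55. Small negative differences of dim genes are therefore not described further. The count of lower genes was 3 without animal 4 and 3 without animal 13. With the normexp background correction, which adds an offset of 50 to every signal, 8 genes were called higher and 0 lower (limma; 2.65% and 3.34% of all symbols), where no fall reached 2-fold (log2 difference -0.89 at the lowest).

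**Figure D2:**
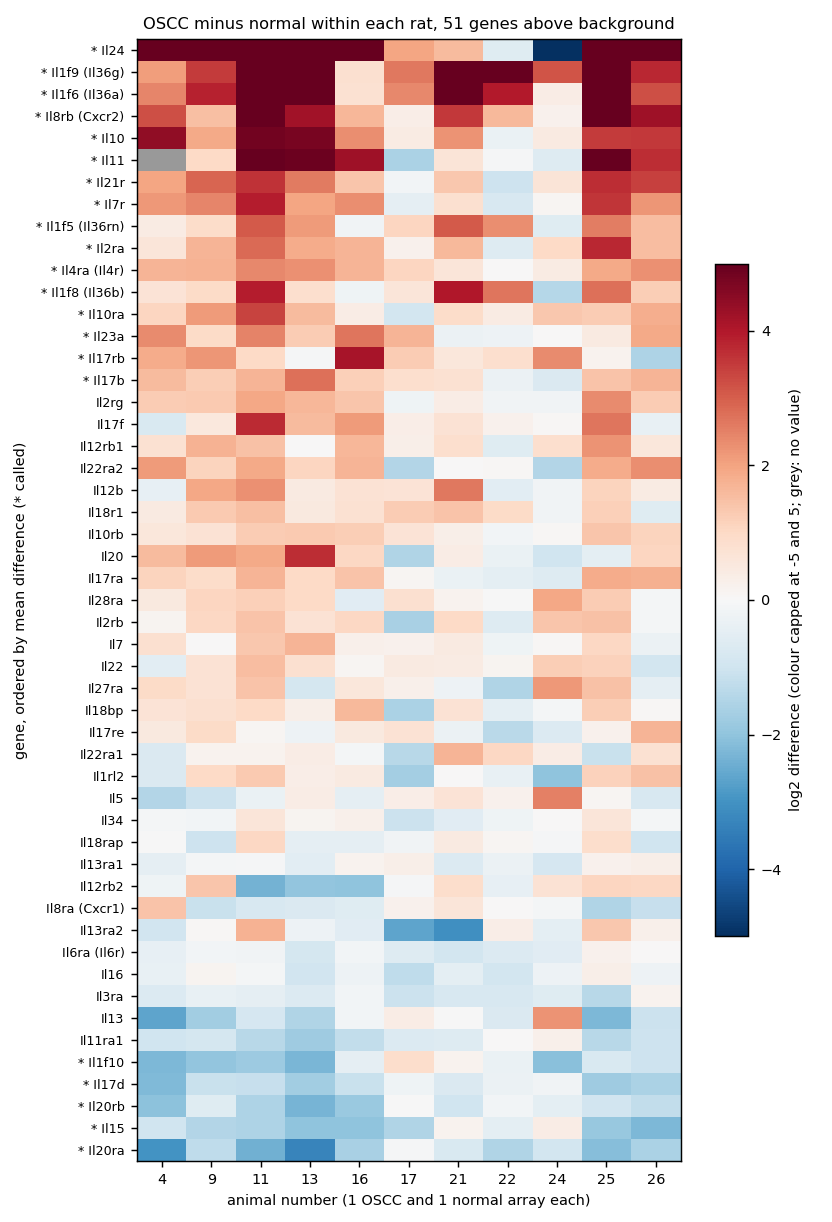
Log2 difference, OSCC minus normal, in each of the 11 rats (columns) for the 51 genes above background on at least 1 array (rows, ordered by mean difference, an asterisk marks the 21 called genes). Il1f9, Il1f6 and Il8rb are red in every rat and Il20ra, Il20rb and Il17d blue in every rat, and the colours are palest in animals 17, 22 and 24.

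The number of called genes that moved in the called direction differed between rats. All 21 did so in animals 9, 11 and 25, and 20 did so in animal 4, in which Il11 had no value. In animal 22 only 12 of 21 did, with Il4ra, at 0.00, counted as unchanged although its unrounded difference was above 0. The count was 15 in animal 24, 16 in animal 17 and 18 in animal 21. The median difference in the called direction was 3.08 in animal 11 and 0.28 in animal 22. The OSCC arrays of animals 21, 22 and 24 are those with the muscle genes at 1635 to 2177, and that of animal 17 had the lowest sum of macrophage markers, 2.03. Without animals 21, 22 and 24, 21 genes were called higher and 8 lower (9.61% and 14.1% of all symbols). Among those 8, Il5ra was above background on no array and Il13 on 1 OSCC array only.

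All 3 IL-36 agonists and the IL-36 receptor antagonist, ligands of the IL-1 family made by epithelium, were called higher. Il1f9 (IL-36 gamma) had a lowest, median and highest log2 level of -5.92, -2.04 and 1.09 in normal tissue and of -1.08, 2.12 and 3.28 in OSCC. It was higher in OSCC in 11 of 11 rats, by 0.80 to 8.04, and 9 OSCC arrays lay above the highest normal array. The mean log2 difference was 4.38 (SE 0.61), 20.9-fold, with a limma adjusted p of 0.00043. Its probe was above background on 7 normal and 11 OSCC arrays.

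Il1f6 (IL-36 alpha) ran from -5.19 through a median of -1.13 to 0.99 in normal tissue and from -3.00 through 2.53 to 3.92 in OSCC. It too was higher in all 11 rats, with 9 OSCC arrays above every normal array. The log2 difference was 3.67 (SE 0.58, limma adjusted p 0.00077). Il1f8 (IL-36 beta) went from -3.52, -1.15 and 0.30 to -3.63, 0.05 and 0.98, a log2 difference of 1.45 (SE 0.46, limma adjusted p 0.027) in 9 of 11 rats, with overlapping groups. Its adjusted p was 0.058 without animal 11 and 0.059 without animal 25.

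Il1f5 (Il36rn), which encodes the antagonist of the same receptor, rose together with the agonists. Its levels were -1.46, -0.12 and 1.29 in normal tissue and -1.74, 1.64 and 2.30 in OSCC, and the log2 difference was 1.48 (SE 0.35, limma adjusted p 0.0062) in 9 of 11 rats. The dimmer Il1f5 probe, about 2 kilobases further along the chromosome, was above background on no array. Il1rl2, the receptor of all these ligands, lay at -4.13, -3.48 and -2.45 in normal tissue and at -5.85, -3.04 and -1.99 in OSCC, and its log2 difference was 0.09 (SE 0.33, limma adjusted p 0.84; -0.16 with quantile scaling). Il1f10, the last gene of the same cluster on chromosome 3, was above background on 2 normal and 1 OSCC arrays, and its log2 difference of -1.09 (limma adjusted p 0.015) was under the 2-fold limit without animals 4, 9, 13 or 24.

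Within the normal tissue the IL-36 genes were low in the same rats. For Il1f9, Il1f6, Il1f8 and Il1f5 alike the 5 lowest normal arrays were those of animals 11, 21, 22, 24 and 25. For Il1f9 these 5 lay at or below -3.57 and the other 6 at or above -2.04. For Il1f5 the limits were -1.01 and -0.12. In those 5 normal arrays the summed tongue epithelium markers were 350 to 491, and in the other 6 they were 599 to 854. In OSCC the array of animal 24 was the lowest for all 4 genes and that of animal 22 the next. The epithelial sum of the OSCC arrays was lowest in animal 24, at 229, and it was 682 in animal 22. The next lowest sum was 394, in animal 4, where Il1f9 stood at 2.45 and Il1f6 at 2.90. Muscle sums were 1948 in animal 24 and 1635 in animal 22, and 2177 in animal 21. The part of epithelium or muscle in these levels was not tested.

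**Figure D3:**
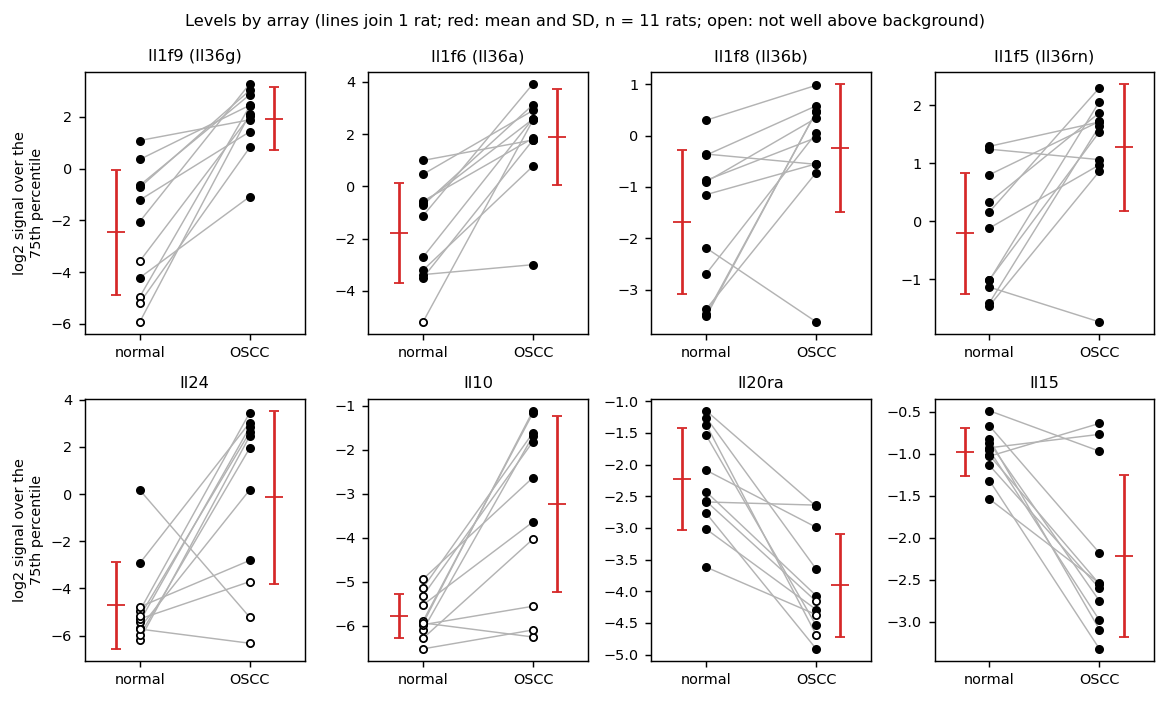
Log2 level relative to the 75th percentile of the array for 8 genes in normal tissue and OSCC, with a line for each rat, filled points for arrays well above background and red bars for the mean and SD of 11 arrays. Il1f9 and Il1f6 rise in every rat, Il1f8 and Il1f5 in 9 of 11, Il24 falls in animal 24 from the highest normal level, and Il15 stays near the normal range in 3 OSCC arrays.

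Upstream sequence is shown for 3 of the IL-36 genes and Il24 because these genes rose furthest or together and the table of RefSeq promoters holds them (assembly GRCr8, 250 bases before the transcript start, written 5′ to 3′ on the strand of the gene). Capitals mark matches on either strand to the STAT motif TTCNNNGAA or to the NF-kB motif (a run of 3 G and a run of 2 C that are separated by any 5 bases), and the AP-1 motif TGANTCA had no match in these 4 windows.
Il36g (Il1f9), chr3:27346437-27346686, plus strand: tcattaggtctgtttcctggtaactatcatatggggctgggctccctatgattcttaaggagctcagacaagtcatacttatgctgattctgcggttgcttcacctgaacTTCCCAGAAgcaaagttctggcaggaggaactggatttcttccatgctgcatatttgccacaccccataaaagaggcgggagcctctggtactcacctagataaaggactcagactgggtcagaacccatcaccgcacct
Il36a (Il1f6), chr3:27394896-27395145, plus strand: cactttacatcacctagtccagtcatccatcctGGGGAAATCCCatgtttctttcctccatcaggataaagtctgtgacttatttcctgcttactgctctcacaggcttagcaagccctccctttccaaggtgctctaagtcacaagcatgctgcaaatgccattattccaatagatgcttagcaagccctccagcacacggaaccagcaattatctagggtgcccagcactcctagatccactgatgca
Il36b (Il1f8), chr3:27428679-27428928, minus strand: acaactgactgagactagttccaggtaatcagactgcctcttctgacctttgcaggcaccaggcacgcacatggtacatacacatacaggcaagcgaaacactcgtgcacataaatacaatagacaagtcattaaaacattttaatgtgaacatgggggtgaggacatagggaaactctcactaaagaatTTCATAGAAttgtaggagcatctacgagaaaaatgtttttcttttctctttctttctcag
Il24, chr13:44910761-44911010, minus strand: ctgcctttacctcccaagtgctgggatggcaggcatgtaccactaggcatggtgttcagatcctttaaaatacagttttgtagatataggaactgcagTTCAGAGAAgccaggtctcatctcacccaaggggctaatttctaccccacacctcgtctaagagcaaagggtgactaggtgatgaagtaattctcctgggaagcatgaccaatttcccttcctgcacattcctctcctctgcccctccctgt

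Counted from the transcript start, with the base before it as -1, the STAT letters begin at -140 in Il36g, at -60 in Il36b and at -152 in Il24, and Il36a holds a pair of overlapping NF-kB matches. Of the 47 genes of the group with a window, 5 held a STAT match, 4 an AP-1 match and 22 an NF-kB match. Of all 33469 windows of this length the shares were 7.67%, 6.34% and 42.3%. Among the 14 windows of genes called higher, 3 held a STAT match (those of Il24, Il36g and Il36b), 1 an AP-1 match and 4 an NF-kB match, and among the 29 windows of uncalled genes 2, 2 and 15 did. A match to these letters is a description of the sequence and not evidence of a bound factor.

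Of the 11 genes of the IL-10 family 3 were called higher and 2 lower. Il24, a cytokine of the IL-20 subfamily, had the widest mean difference of the group and also the widest spread. Its level was -6.18 at the lowest, -5.29 at the median and 0.17 at the highest in normal tissue and -6.32, 1.95 and 3.45 in OSCC. The probe was above background on 2 normal arrays (animals 24 and 25) and 8 OSCC arrays, and 7 OSCC arrays lay above the highest normal one. The mean log2 difference was 4.58 (SE 1.24, limma adjusted p 0.013), with 9 of 11 rats higher, and it ranged from -5.39 in animal 24 to 8.63 in animal 4. Over the 8 rats other than 21, 22 and 24 it was 6.85, and in the 9 pairs scanned on different days it was 3.99 and no longer passed.

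Il10, an anti-inflammatory cytokine of macrophages and T cells that lies beside Il20 and Il24 on chromosome 13, was above background on 0 normal and 7 OSCC arrays. Its levels were -6.53, -5.94 and -4.94 in normal tissue and -6.26, -2.63 and -1.11 in OSCC, and 8 OSCC arrays exceeded every normal one. Against the background of the normal arrays the rise was at least 1.58-fold (fitted log2 difference 2.55, SE 0.50, limma adjusted p 0.0022), with 10 of 11 rats higher. Of its receptor, Il10ra (the ligand-binding chain) had a log2 difference of 1.21 (SE 0.30, limma adjusted p 0.0086), which was 1.00 without animal 11, just under the 2-fold limit. Il10rb, the chain shared by several receptors of the family, was above background on all arrays, and its difference of 0.77 (SE 0.17, limma adjusted p 0.0037) was under 2-fold, with 9 OSCC arrays above every normal one.

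Il20ra and Il20rb, the chains of a receptor of IL-24, IL-20 and IL-19, were lower, against the mean rise of Il24. In animals 22 and 24, however, Il24 was lower too (-0.60 and -5.39). Il20ra lay at -3.62, -2.43 and -1.15 in normal tissue, where 11 of 11 arrays were above background, and at -4.91, -4.16 and -2.64 in OSCC, where 8 were. It was lower in 11 of 11 rats, by a mean log2 difference of -1.69 (SE 0.27, limma adjusted p 0.00086), 3.22-fold. Il20rb, its partner chain, lay at -2.14, -1.64 and -0.96 in normal tissue and at -3.55, -2.83 and -1.71 in OSCC, also lower in 11 of 11 rats (difference -1.11, SE 0.22, limma adjusted p 0.0025; -0.99 without animal 13). Il22ra2, a soluble decoy receptor for IL-22, was above background on 2 normal and 8 OSCC arrays and had a difference of 0.84 (SE 0.38, limma adjusted p 0.084). Il20 itself was above background on 5 OSCC arrays only, with a difference of 0.77 (limma adjusted p 0.15). Il22ra1, a further receptor chain of the family, was above background on 1 OSCC array only, with a difference of 0.11 (limma adjusted p 0.73).

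Of the 16 genes grouped with the common gamma chain, which include IL-13 and its receptors, 4 were called higher and 1 lower, and 11 were above background on some array. The 4 were receptor chains. Il4ra, the chain shared by the IL-4 and IL-13 receptors, had a narrow spread, at -1.94, -1.45 and -1.36 in normal tissue and -1.37, 0.23 and 0.92 in OSCC. It was no lower in any rat, with differences of 0.00 in animal 22 to 2.41, and 10 OSCC arrays lay above every normal one. The mean log2 difference was 1.46 (SE 0.23, limma adjusted p 0.0008), and the second Il4ra probe was also higher in all 11 rats. Il21r, the IL-21 receptor, rose by 1.85 (SE 0.43, limma adjusted p 0.0059) and was above background on 7 normal and 10 OSCC arrays. Il7r, the IL-7 receptor of lymphocytes, rose by 1.66 (SE 0.42, limma adjusted p 0.0096) from 2 to 9 arrays. Both of its probes were higher in 9 of 11 rats. On the dimmer one, however, the highest normal array, at 0.74, lay above every OSCC array (highest -1.54). Il2ra (CD25), the inducible chain of the IL-2 receptor, rose by 1.47 (SE 0.33, limma adjusted p 0.0051) from 1 array to 10.

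Il2rg, the common gamma chain itself, stood just under the 2-fold limit. It was above background on all arrays, at 0.03, 0.26 and 0.83 in normal tissue and -0.01, 1.59 and 2.48 in OSCC, with a difference of 0.99 (SE 0.25, limma adjusted p 0.0099). Just above that limit among the genes called higher stood Il17b, at 1.10.

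Il15, a growth factor for natural killer cells and memory T cells that skeletal muscle also makes, was the called lower gene of this family. Its levels were -1.54, -0.96 and -0.49 in normal tissue and -3.32, -2.55 and -0.64 in OSCC, on 11 of 11 arrays of both. The log2 difference was -1.23 (SE 0.25, limma adjusted p 0.0031), with 9 of 11 rats lower. The OSCC arrays of animals 21, 22 and 24 lay at -0.77, -0.97 and -0.64, within the normal range, and the other 8 at or below -2.18. These 3 arrays had muscle sums of 2177, 1635 and 1948, and the other 8 had at most 651. Without the 3 rats the difference was -1.71. Other genes lower in OSCC widened too, such as Il17d from -1.10 to -1.37 and Il11ra1 from -0.88 to -1.17, while Il6ra narrowed from -0.39 to -0.26. The part of muscle in these differences was not tested.

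**Figure D4:**
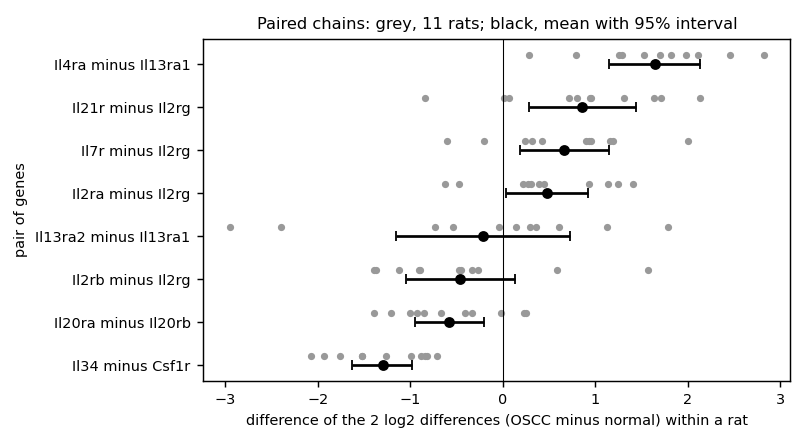
Difference between the changes of paired genes (receptor chains, or a ligand and its receptor) within each rat, on the log2 scale, as grey points for 11 rats and a black point with the 95% interval for the mean. Il4ra minus Il13ra1 lies above 0 and Il34 minus Csf1r below 0 in every rat.

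Receptor chains and ligands that work as pairs were compared within each rat, which needs no scaling between arrays. Of 19 such pairs 8 had both probes above background on at least 11 arrays, and 5 of the 8 changed unequally (exact two-sided sign-flip permutation test over 11 rats, Benjamini-Hochberg over the 8 pairs; the smallest p that 11 rats can give is 0.00098). Il4ra rose against Il13ra1, its partner in the type 2 IL-4 receptor, by 1.64 (95% interval 1.15 to 2.13; exact p 0.00098, adjusted 0.0039). Il13ra1 itself lay at 0.55, 0.88 and 1.38 in normal tissue and -0.17, 0.84 and 1.14 in OSCC, a difference of -0.18 (SE 0.13, limma adjusted p 0.29). Its dimmer probe, also above background on all arrays, went the other way, by 0.42 (SE 0.14, limma adjusted p 0.032; 8 of 11 rats higher), so no direction is given for Il13ra1. Against that probe Il4ra rose by 1.04 (interval 0.60 to 1.48; exact p 0.00098), again in 11 of 11 rats. Il34 was lower relative to Csf1r, the receptor it shares with M-CSF, by -1.30 (interval -1.63 to -0.98; exact p 0.00098, adjusted 0.0039). Csf1r, which is also a macrophage marker in the list above, rose by 1.25 (SE 0.23, limma adjusted p 0.0017). The part of macrophages in this was not tested. The log2 difference of Il34 itself was -0.05 (SE 0.15, limma adjusted p 0.78). That sign turned with the scaling, to 0.03 over detected probes.

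Il21r rose more than Il2rg, with which it pairs, by 0.86 (exact p 0.011, adjusted 0.021). Il20ra fell further than Il20rb by a difference of -0.58 (exact p 0.011, adjusted 0.021). Il7r and Il2ra entered the comparison through their OSCC arrays, being above background on 2 and 1 normal arrays, so their differences from Il2rg, 0.66 and 0.48, are set against normal levels near background and nothing is read from them. With the pairs limited to genes above background on at least 6 arrays of each tissue, a limit chosen after seeing the data, 4 of 6 changed unequally. For Il2rb against Il2rg the difference was -0.46 (interval -1.05 to 0.13; adjusted exact p 0.13) and for Il13ra2 against Il13ra1 -0.21 (interval -1.16 to 0.73; exact p 0.63), intervals that allow a shift of up to about 1 log2 unit in some cases. Over the 9 pairs scanned on different days 2 of the 8 passed, as did 2 with the normexp correction.

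Of the 8 genes of the IL-17 family 2 were called higher and 1 lower. Il17d, a ligand above background on all arrays, lay at -0.22, 0.19 and 0.47 in normal tissue and -1.74, -0.93 and 0.01 in OSCC and was lower in 11 of 11 rats. The log2 difference was -1.10 (SE 0.20, limma adjusted p 0.0016; -0.99 without animal 4). Il17b, a further ligand of the family, which falls outside the 15 highest and was added after its value was seen, went from -3.27, -3.07 and -2.39 to -3.28, -1.68 and -0.44 (difference 1.10, SE 0.27, limma adjusted p 0.0077; 0.94 without animal 13). Il17rb, the receptor of IL-17B and IL-25, was above background on 0 normal and 5 OSCC arrays. Its fitted difference of 1.16 (limma adjusted p 0.037) allows no lower limit of a fold above 1, and it failed to pass when any 1 of animals 4, 9, 11, 16, 17 and 24 was left out. Il17ra, the shared receptor chain, rose by under 2-fold (difference 0.76, SE 0.26, limma adjusted p 0.036). Il17re, the receptor of IL-17C, was among the 3 smallest differences of the genes above background on all arrays, at 0.19 (SE 0.24, limma adjusted p 0.52), and -0.01 when arrays were scaled by their median.

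Il17f was above background on 4 OSCC arrays and on no normal array, with a difference of 0.99 (limma adjusted p 0.051). The IL-17A probe, no member of the group by its symbol, was above background on 0 normal and 7 OSCC arrays and higher by at least 1.70-fold (fitted log2 difference 2.96; limma adjusted p 0.0054).

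In the IL-12 family Il23a, the private subunit of IL-23, was the called gene of 5. Its levels were -4.91, -3.85 and -3.48 in normal tissue and -4.09, -2.55 and -1.36 in OSCC, with 8 OSCC arrays above every normal one and 9 of 11 rats higher. The log2 difference was 1.20 (SE 0.31, limma adjusted p 0.0097). Il12b, the subunit that IL-23 shares with IL-12, was above background on 4 OSCC arrays and no normal array (difference 0.83; limma adjusted p 0.039), and Il12rb1, the receptor chain that both use, on 5 OSCC arrays and no normal array (difference 0.89; limma adjusted p 0.012).

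In the IL-6 family Il11, a stromal cytokine that signals through gp130, was the called gene of 5. It was above background on 0 normal and 6 OSCC arrays, with levels of -5.26, -4.80 and -4.13 in normal tissue and -5.77, -2.34 and 1.23 in OSCC over the 10 OSCC arrays with a value. Against the background of the normal arrays the mean rise was at least 2.98-fold, a limit that leaves out the spread between rats. The fitted log2 difference was 2.36 (SE 0.78, limma adjusted p 0.032), with 7 of 10 rats higher. It failed to pass when any 1 of animals 11, 13, 16, 25 and 26 was left out, with adjusted p up to 0.072. Il11ra1, the IL-11 receptor, was above background on all arrays and lower by under 2-fold (difference -0.88, SE 0.18, limma adjusted p 0.003), as was Il6ra, the IL-6 receptor (difference -0.39, SE 0.13, limma adjusted p 0.03).

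Il8rb (Cxcr2), the receptor of neutrophil-attracting chemokines, lay at -6.08, -4.33 and -2.23 in normal tissue and -4.70, -0.56 and 0.54 in OSCC and was higher in 11 of 11 rats. The log2 difference was 2.95 (SE 0.56, limma adjusted p 0.0019), and its probe was above background on 3 normal and 9 OSCC arrays. In the common beta chain group no gene reached a 2-fold difference, and Il3ra (the IL-3 receptor) was the 1 gene above background on all arrays. Its brighter probe had a difference of -0.62 (SE 0.14, limma adjusted p 0.0049) and its dimmer one, also above background on all arrays, of -0.05 (SE 0.15, limma adjusted p 0.78; 5 rats higher and 6 lower).

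Genes that carry interleukin signals under other names were read from a list of 37, of which 34 were on the array. Of these 12 were called higher and 1 lower, where the same rule called 7.48% and 7.24% of all gene symbols. The median log2 difference of the 34 was 0.86. Among the partner genes measured in both tissues the widest rise was in Csf3r, the receptor of the neutrophil growth factor G-CSF (3.33, SE 0.63, limma adjusted p 0.0019). Csf3r also belongs to the neutrophil markers listed above. Osm, oncostatin M, was above background on 0 normal and 9 OSCC arrays and higher by at least 3.50-fold (limma adjusted p 0.0042). Csf3 (G-CSF) rose by 2.62 (limma adjusted p 0.0033), Socs3, a STAT-induced inhibitor of gp130 signalling, by 2.39 (limma adjusted p 0.00094) in 11 of 11 rats, and Ebi3, the subunit of IL-27 and IL-35, by 2.37 (limma adjusted p 0.0028). Csf2rb, the common beta chain, was above background on 0 normal and 7 OSCC arrays and higher by at least 1.06-fold (limma adjusted p 0.00078). The called lower gene was Cntfr, the receptor of ciliary neurotrophic factor, whose probe was above background on 11 normal and 3 OSCC arrays (difference -1.90, SE 0.56, limma adjusted p 0.02).

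Scan day and tissue overlapped in 9 of 11 pairs, and the within-day pairs were therefore set against the others. Each slide held 1 tissue only, so slide and tissue overlapped in all 11 pairs, those of animals 4 and 9 included. In animals 4 and 9, 20 of the 21 called genes changed in the called direction in both, the other being Il11, which has no value in animal 4. These 2 pairs were among the 11 used to call the genes, which favours such a count, so it is no independent check. The like count over all called symbols was not made. Il1f9 differed by 2.08 and 3.51 in these 2 pairs and by a mean of 4.74 in the other 9. Il1f6 differed by 2.44 and 3.84 against 3.79, Il10 by 4.42 and 1.89 against 2.41, Il4ra by 1.67 and 1.73 against 1.41, and Il20ra by -2.99 and -1.27 against -1.59. With scan day as a term in the fit, the tissue difference rests on the pairs of animals 4 and 9 alone. In that fit no gene of the group passed the limma adjusted p of 0.05, and over all 19167 symbols 0 higher and 3 lower did (0.00% and 0.0157%). All 21 called genes kept their direction in it, which repeats the values of these 2 pairs (for Il11 of animal 9 only) and is no further check. Without adjustment for multiple tests, at p below 0.05 and the same fold limit, 9 of the 64 genes were higher and 16 lower (6.21% and 23.0% of all symbols). Of those 16 lower genes 11 were above background on no array and 1 on a single array, so this count is mostly one of undetected genes.

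**Figure D5:**
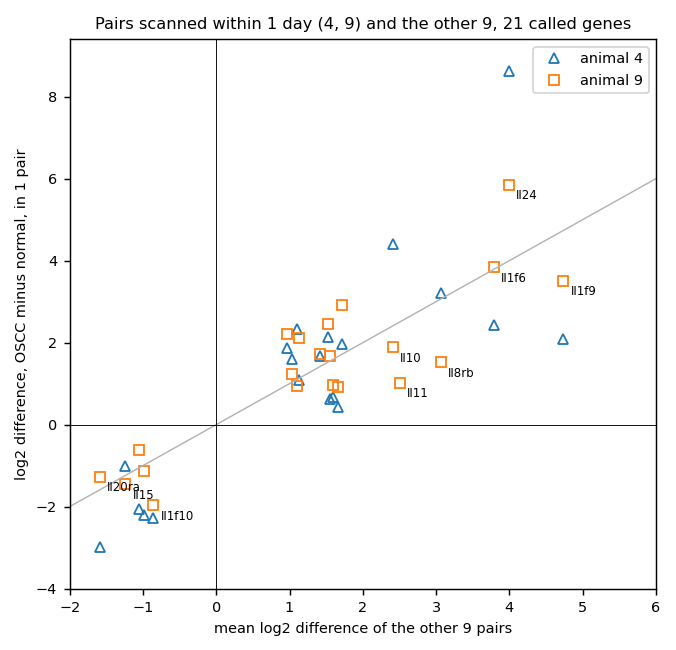
Log2 difference of the 21 called genes in animals 4 and 9, whose arrays were scanned on 1 day (vertical axis), against the mean of the other 9 pairs (horizontal axis), with the line of equality. All points lie on the same side of 0 on both axes, and Il24 in animal 4, at 8.63, is the highest. Both pairs were part of the fit that called the genes, and their normal and OSCC arrays lay on different slides.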

How the data were processed

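The authors scanned one-colour Agilent rat arrays and extracted them with Feature Extraction 9.5.3.1. The deposited intensity values are processed signals after background subtraction and detrending, without scaling. A ratio of each signal to the 75th percentile (lowest value 0.01), also deposited, served as an alternative. Here control and outlier spots (0.975%) were dropped, log2 signals averaged over the spots of a probe and the 75th percentile subtracted. The percentile was 236.8 to 654.9 in normal and 338.7 to 1414 in OSCC arrays. A probe counted as above background where at least 50% of its spots were flagged so. Where no array of a tissue was, the fold is a lower limit of the mean fold against the dimmest detected probe. It takes no account of the spread between rats. limma 3.58.1 (R 4.3.3) was fitted to 30367 probes with terms for rat and tissue and p adjusted by Benjamini-Hochberg, in place of the paired t-test of the methods. The pairing comes from 1 animal giving both pieces, and deviations of a pair correlated between -0.2133 and 0.2421 (median -0.02476). The array number limits precision. Motifs were searched in 250 bases. Positions are rn4 for probes and GRCr8 for promoters.

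Named genes are the called genes (up to 15 a direction), uncalled genes of at least 2-fold (none), the 3 smallest differences on all arrays and up to 6 partner genes a direction. Others, such as partner chains and genes near the limits, were added after their values were seen. The members and lists were chosen with earlier results of these data known. Receptor families follow general knowledge. The alternatives were quantile, median and detected-probe scaling, normexp, the deposited ratio, a dim-probe filter, the next brightest probe, scan day, slide, no pairing and fewer rats.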

Additional observations from a re-analysis of the deposited data

How the results depend on the processing

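Counts of genes of the group called higher (16) and lower (5), of partner genes higher (12) and lower (1) and of unequal pairs (5) moved as follows. With normexp correction they were 8, 0, 5, 0 and 2. With scan day as a term (limma), a fit that rests on 2 pairs, they were 0, 0, 0 and 0, and at an unadjusted p 9, 16, 8 and 1. Without animals 21, 22 and 24 they were 21, 8, 17, 3 and 6. With only pairs scanned on different days they were 11, 3, 10, 0 and 2. With the array median as scale 3 partner genes were lower. Leaving out 1 rat at a time gave 12 to 19, 3 to 5, 10 to 16, 1 to 3 and 5 to 6. The 3 lower partner genes were seen without animal 21 and without animal 24, and 2 without animal 17. The fit without the replicate block (no pairing) gave 16, 5, 12, 1 and 5, so the pairing changed no count. Slide, which holds 1 tissue each, as a random block gave 14, 5, 10 and 1; slide, scan day and the dim-probe filter were not applied to the pairs. The all-probe median moved from -0.24 to -0.03 with quantile scaling, -0.44 with the array median, -0.15 over detected probes, -0.08 with normexp and -0.14 with the deposited ratio. Of 500 values of called genes under the alternatives 425 kept direction and call, 73 lost the call and 2 turned, Il17rb with normexp (-0.06) and Il1f5 on its dimmer probe (-0.67), which was above background on no array. Among uncalled genes, Il13ra1 turned to 0.42 on its dimmer probe, Il34 turned to 0.03 over detected probes, 0.01 with normexp, 0.03 without animals 21, 22 and 24 and 0.05 without animal 17 (-0.12 to 0.05 without 1 rat at a time), Il17re to -0.01 with the array median, Il1rl2 to -0.16 with quantile scaling, -0.11 with the array median and -0.05 to 0.30 without 1 rat at a time, and Il17f to -0.04 with normexp and -0.11 with scan day as a term. The cause was not tested. Il17rb lost its call in 13 alternatives, Il11 in 10 and Il1f10 in 8. Genes near background have compressed differences, which limits what the counts can show.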
